A study of Mus musculus with 6 samples.

Results

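In all, 10 genes were followed through mouse stomach organoids with and without extra Erbb2, which encodes HER2, a cell-surface kinase related to the EGF receptor. They were 9 genes of the brush border and Mgam2-ps, a pseudogene related to the brush border enzyme gene Mgam, and together they made up 10 of the 25528 genes counted. Mgam2-ps and Baiap2l2 had been chosen by their count differences, which were large between these same groups, so their differences are given as descriptions, with no test. Their counts in all 6 libraries were the values used. The other 8, Vil1, Ezr, Eps8, Eps8l2, Espn, Cdhr2, Cdhr5 and Myo1a, were chosen as known parts of microvilli and were not picked for their change. The list was nevertheless set with earlier results of these data known.

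The samples were organoids of the gastric corpus, the acid-producing body of the stomach, grown in 3D culture. The control group (Ctrl_Corpus, 3 libraries) had been transduced with an empty vector. The overexpression group (Erbb2_OE_Corpus, 3 libraries) carried an Erbb2 overexpression construct. The sources used here do not state the mouse strain or age, the promoter of the construct, the number of lines or clones, or the time after transduction. They also do not say if replicates were separate cultures or animals, so that p-values measure the spread between these libraries, which may be technical. Total counts of polyadenylated RNA lay between 18735853 and 22767455 per library. Levels are given as counts per 1000000 counts (CPM) after scaling for library composition, and the 2 groups are called control and Erbb2 below.

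A brush border is a dense array of microvilli on the apical face of an epithelial cell. Each microvillus holds a bundle of actin filaments crosslinked by villin, espin and plastin, tied to the membrane by ezrin and class I myosins, and capped at its tip by proteins that act on growing filament ends. Protocadherins reach from tip to tip and pack the microvilli together. The intestine is the best known site, where digestive enzymes such as maltase-glucoamylase sit on the membrane, while in the stomach ezrin is known from the acid-secreting parietal cells and villin from tuft cells and from cells that take on intestinal features.

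Erbb2 itself checked the labels. It was counted at 125, 164 and 128 CPM in control replicates 1, 2 and 3 and at 342, 349 and 285 CPM in Erbb2 replicates 1, 2 and 3. The groups did not overlap, and the means were 139 ± 21.9 and 325 ± 35.0 CPM (SD, n = 3 each). Same-numbered libraries of the groups deviated together across all genes, so that the number was taken to pair them. Without that pairing 0 of 12593 genes tested, or 0.0%, passed an adjusted p of 0.05 (edgeR quasi-likelihood test with Benjamini-Hochberg adjustment). In that fit 419 genes had an unadjusted p under 0.05, DESeq2 called 28 genes higher and 6 lower, and limma voom called 0. With the replicate number as a block 3.09% of genes passed, 2.37% higher and 0.723% lower in the Erbb2 group. Values below come from this blocked fit except where the text names another. Here Erbb2 rose 2.35-fold (log2 1.23 ± 0.09 SE, adjusted p = 3.55e-05, higher in 3 of 3 pairs), while without the block its adjusted p was 0.640.

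Mgam2-ps (ENSMUSG00000102802) is annotated as a transcribed unprocessed pseudogene, a copy of a gene with its introns that is transcribed but has no annotated protein. It lies next to Mgam, which encodes maltase-glucoamylase, the brush border enzyme that splits starch fragments into glucose. Because reads of a copy can be miscounted, the transcripts were compared. Of 4886 stretches of 50 bases in the Mgam2-ps transcripts, 25 (0.512%) also occurred in another gene, and all 25 were in Mgam. The transcript Mgam2-ps-201, of 3745 bases, aligned locally with the 5481-base coding sequence of Mgam-201 over 654 bases, of which 553 (84.6%) were identical, and the longest identical run was 74 bases. The most alike stretch of 100 bases is shown because it is where reads of the genes are hardest to tell apart. It spans positions 3269 to 3368 of the Mgam2-ps transcript and positions 4450 to 4549 of the Mgam coding sequence, 5′ to 3′, with the 1 position that differs in capitals.
Mgam2-ps: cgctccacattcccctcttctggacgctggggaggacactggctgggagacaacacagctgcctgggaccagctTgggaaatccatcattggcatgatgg
Mgam: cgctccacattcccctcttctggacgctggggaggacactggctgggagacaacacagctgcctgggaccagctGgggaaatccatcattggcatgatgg

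Mgam2-ps had few reads in control replicates 1 and 2, more in control replicate 3, and many more in each Erbb2 library. Control replicates 1, 2 and 3 held 5, 1 and 45 reads of it, or 0.232, 0.0563 and 1.94 CPM. Erbb2 replicates 1, 2 and 3 held 824, 488 and 684 reads, or 35.9, 27.6 and 28.5 CPM. The control libraries spread widely, with replicate 3 above the others, while the Erbb2 libraries lay close together, and the groups did not overlap. The means were 0.741 ± 1.04 and 30.7 ± 4.57 CPM (SD, n = 3 each), and the fitted difference was 5.25 ± 0.55 (SE) on the log2 scale, or 38.1-fold.

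The size of that difference depended on the pair of libraries. Within pair 1 the Mgam2-ps ratio of Erbb2 to control was 155 (exact 95% interval 66.2 to 479). Within pair 3 it was 14.7 (10.9 to 20.4). Pair 2, with 1 control read, gave 490 (87.6 to 19412). These intervals cover counting error only. With replicate 3 of both groups left out the fitted fold was 204, and over all settings tried with the block the log2 difference lay between 4.73 and 7.67.

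Mgam was counted at 5.84, 3.10 and 7.44 CPM in control replicates 1, 2 and 3 and at 8.29, 4.30 and 6.66 CPM in Erbb2 replicates 1, 2 and 3. The groups overlapped, and the difference of 0.23 ± 0.21 (log2, SE) did not pass the test (adjusted p = 0.652). Per kb of exon, Mgam stood at 0.627 ± 0.252 in control and 0.737 ± 0.230 CPM per kb in Erbb2 libraries (SD, n = 3 each) and Mgam2-ps at 0.159 ± 0.223 and 6.59 ± 0.982, so that Mgam was the higher in every control library and Mgam2-ps in every Erbb2 library. The 3 nearest annotated genes on each side of Mgam2-ps were also read, with predicted genes (Gm and Rik names) and small RNA genes left out. Of these the other 5, namely Clec5a, Tas2r138, Moxd2, Trbv1 and Prss58, each had 0 counts in all 6 libraries. A count of 0 allows at most 0.125 to 0.170 CPM depending on the library. The genes left out were not examined.

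Baiap2l2 (ENSMUSG00000018126) encodes a protein of the inverse BAR domain family, whose members bind membranes and actin. It was counted at 7.46, 3.10 and 6.63 CPM in control replicates 1, 2 and 3 and at 1.13, 1.30 and 2.62 CPM in Erbb2 replicates 1, 2 and 3. All Erbb2 libraries lay below all control libraries. Together with Mgam2-ps, 2 of 2 picked genes thus had groups that did not overlap, as did 8.75% of all genes tested, 4.27% with the Erbb2 group higher and 4.48% with it lower. The picking fixed this count. The Baiap2l2 means were 5.73 ± 2.32 and 1.69 ± 0.815 CPM (SD, n = 3 each).

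The fitted Baiap2l2 level was 3.41-fold lower in the Erbb2 group (log2 -1.77 ± 0.30 SE). Ratios of Erbb2 to control were 0.152, 0.420 and 0.396 in pairs 1, 2 and 3, and the log2 difference lay between -1.31 and -2.15 over the settings tried with the block. Of its nearest neighbours on the chromosome, with predicted and small RNA genes left out as above, none that was tested passed. Pick1 differed by -0.09, Pla2g6 by 0.04, Maff by 0.24 and Tmem184b by 0.21 on the log2 scale (adjusted p = 0.698, 0.877, 0.351 and 0.233). Slc16a8 reached at most 0.0463 CPM, and Lgals1-ps2 was not analysed here.

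**Figure D1:**
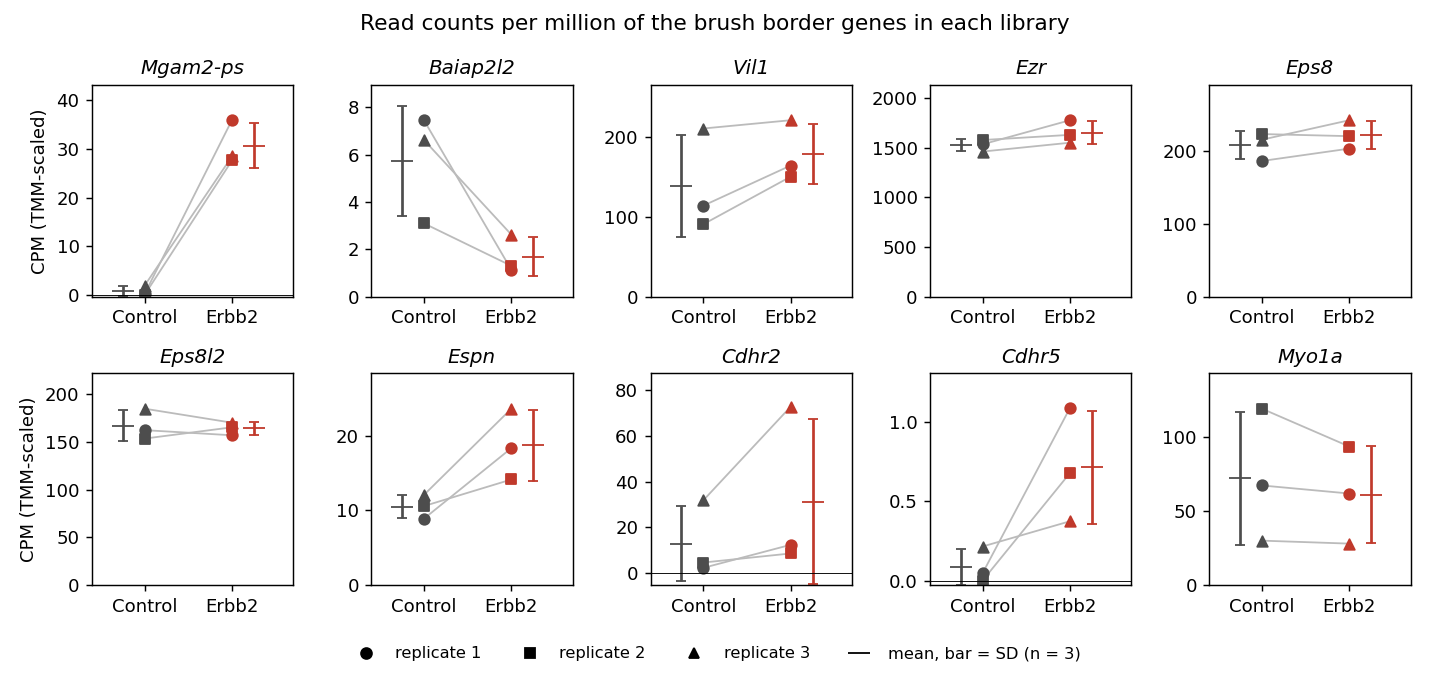
Level of each of the 10 genes in each library, in TMM-scaled CPM on linear axes that differ between panels. Points are libraries, grey lines join same-numbered replicates, and the offset bars give mean and SD over 3 libraries; Mgam2-ps, Baiap2l2, Espn and Cdhr5 have groups that do not overlap, and replicate 3 stands highest for Vil1 and Cdhr2 in both groups.

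Of the 8 members not picked for their change, 7 had enough counts to be tested. With the block 2 of the 7, Cdhr2 and Espn, were higher in the Erbb2 group, where 2.37% of all tested genes were, and 0 were lower, against 0.723%. Since the list was set with earlier results of these data known, this count is a description and was not tested against that share. Without the block 0 of the 7 passed, against 0.0% of all genes. In that fit 1 of the 7, Espn, had an unadjusted p under 0.05, beside 419 of all 12593 genes tested. Neither DESeq2 nor limma voom without the block called any of the 7. The median log2 difference of the 7 was 0.11, beside -0.01 over all tested genes.

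Cdhr2 and Cdhr5 encode the protocadherins that bind each other between the tips of neighbouring microvilli. Cdhr2 was counted at 2.22, 4.56 and 31.8 CPM in control replicates 1, 2 and 3 and at 12.3, 8.55 and 72.9 CPM in Erbb2 replicates 1, 2 and 3. Replicate 3 was far above the others in both groups, so that the groups overlapped, and the means of 12.9 ± 16.4 and 31.2 ± 36.1 CPM (SD, n = 3 each) carried large errors. Within pairs the Erbb2 library was the higher one each time, by 5.55, 1.87 and 2.29-fold in pairs 1, 2 and 3. With the block Cdhr2 rose 2.63-fold (log2 1.40 ± 0.22 SE, adjusted p = 0.0144). Without the block the difference was 1.27 ± 1.14, and it turned to -0.31 when Erbb2 replicate 3 was left out. An earlier form of the quasi-likelihood fit with the block gave an adjusted p of 0.0559.

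Cdhr5 was close to the detection limit. Control replicates 1, 2 and 3 held 1, 0 and 5 reads and Erbb2 replicates 1, 2 and 3 held 25, 12 and 9, or 1.09, 0.679 and 0.375 CPM. The groups did not overlap, but the gene fell below the count filter. Fitted with no filter, the difference was 2.81 ± 0.93 (log2, SE) with an adjusted p of 0.163, so it did not pass. With the filter and without replicate 3 of both groups it was 4.85 (adjusted p = 0.00658), on 1 and 0 control reads. That fit called 769 of all genes higher, against 298 with all pairs. Without replicate 1 or 2 of both groups the gene fell below the filter. By pair the ratio was 23.5 (exact 95% interval 3.85 to 966) in pair 1 and 1.74 (0.524 to 6.62) in pair 3, and in pair 2, with 0 control reads, the lower bound was 2.79.

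Espn encodes espin, which crosslinks actin filaments and lengthens the bundles of microvilli. It was counted at 8.90, 10.6 and 12.1 CPM in control replicates 1, 2 and 3 and at 18.4, 14.2 and 23.6 CPM in Erbb2 replicates 1, 2 and 3. Every Erbb2 library lay above every control library, which among the 7 tested members held for Espn alone and among all tested genes for 4.27% in this direction. The means were 10.5 ± 1.60 and 18.7 ± 4.76 CPM (SD, n = 3 each). Espn rose 1.78-fold with the block (log2 0.83 ± 0.16 SE, adjusted p = 0.0131, higher in 3 of 3 pairs), and without replicate 1 of both groups the adjusted p was 0.0968.

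Upstream sequence of these members was read from RefSeq promoter entries of the assembly GRCm38.p6, which hold 250 bases before and 50 after a start site. Entries were found for 7 of the 10 members, 9 entries in all. They were searched on both strands for short forms of sites of intestinal transcription factors, namely CNATAAA for the CDX family, GTTAATNAT for HNF1 and CAAAGTCCA for HNF4. Among 32851 promoter entries 10.9% held CNATAAA, 0.801% held GTTAATNAT and 0.475% held CAAAGTCCA. Of the 9 entries of members 1 held the CDX form, 1 the HNF1 form and 0 the HNF4 form, and the stretches with a match are shown. The motifs were chosen after these sequences were seen, so the counts of matches are descriptions. The difference from the background shares was not tested. The same search in 12 entries of 8 other genes called with the block, Ace, Calml4, Cdx2, Cobl, Eps8l3, Gsn, Mall and Msn, found 0 matches. Psca and Ush1g, also called, were not in that search. The search did cover Anks4b, Cdhr1, Myo7a and Ush1c, which were not called, and each had 0 matches. Each stretch shown gives bases 250 to 11 upstream of the start, 5′ to 3′ on the gene's strand, with the match in capitals. The Cdhr2 stretch, chr13:54701213-54701452 on the plus strand, ends before the first annotated exon, and its match begins 54 bases upstream of the start. The Espn stretch, chr4:152128936-152129175 on the minus strand, lies before the third of 3 start sites, within introns of longer Espn transcripts, and its match begins 197 bases upstream. A match is a run of letters and was not tested as a binding site.
Cdhr2: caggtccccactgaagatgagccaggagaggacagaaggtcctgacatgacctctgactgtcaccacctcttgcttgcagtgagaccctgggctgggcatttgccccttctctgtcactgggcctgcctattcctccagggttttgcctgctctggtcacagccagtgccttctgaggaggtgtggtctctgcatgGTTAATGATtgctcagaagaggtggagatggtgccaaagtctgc
Espn: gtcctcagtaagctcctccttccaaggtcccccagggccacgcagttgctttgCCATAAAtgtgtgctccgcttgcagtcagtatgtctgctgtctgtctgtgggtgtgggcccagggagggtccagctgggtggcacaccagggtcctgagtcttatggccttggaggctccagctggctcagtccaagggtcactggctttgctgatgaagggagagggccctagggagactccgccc

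Vil1 encodes villin, which bundles and severs actin filaments and is a classic marker of the intestinal brush border. It was counted at 114, 90.5 and 210 CPM in control replicates 1, 2 and 3 and at 164, 150 and 221 CPM in Erbb2 replicates 1, 2 and 3. Control replicate 3 lay within the range of the Erbb2 group. The means were 138 ± 63.5 and 178 ± 37.4 CPM (SD, n = 3 each), and the difference of 0.44 ± 0.12 (log2, SE) did not pass with the block (adjusted p = 0.0841). It passed without replicate 3 of both groups, at 0.63 (adjusted p = 1.51e-08), and in DESeq2 with the block (adjusted p = 0.0106). Without replicate 3 of both groups 769 of all genes were called higher, against 298 with all pairs. Without replicate 1 or replicate 2 of both groups Vil1 did not pass (adjusted p = 0.383 and 0.411).

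Ezr encodes ezrin, which links actin filaments to the plasma membrane, and was by far the most abundant member. It was counted at 1535, 1579 and 1462 CPM in control replicates 1, 2 and 3 and at 1779, 1631 and 1552 CPM in Erbb2 replicates 1, 2 and 3. The groups overlapped, and the difference of 0.11 ± 0.08 (log2, SE) did not pass (adjusted p = 0.501). Myo1a encodes a class I myosin that ties the actin core to the microvillus membrane. It was counted at 67.1, 119 and 29.9 CPM in control replicates 1, 2 and 3 and at 61.7, 93.3 and 27.9 CPM in Erbb2 replicates 1, 2 and 3. Replicate 3 was lowest in both groups, and the order of the replicates was the reverse of that for Vil1. The difference of -0.20 ± 0.09 (log2, SE) did not pass (adjusted p = 0.292).

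Eps8 and Eps8l2 encode relatives that cap or bundle actin filaments at the tips of microvilli and stereocilia. Eps8 was counted at 186, 223 and 215 CPM in control replicates 1, 2 and 3 and at 203, 220 and 242 CPM in Erbb2 replicates 1, 2 and 3. Its difference of 0.09 ± 0.08 (log2, SE) did not pass (adjusted p = 0.604). Eps8l2 was counted at 162, 154 and 185 CPM in control and at 157, 165 and 170 CPM in Erbb2 replicates 1, 2 and 3, with a difference of -0.02 ± 0.08 (adjusted p = 0.931). Both genes varied little between libraries and their groups overlapped. Of 5553 stretches of 50 bases in Eps8l2 transcripts, 26.1% also occur in the annotated gene B230206H07Rik, so that its count is uncertain where reads were shared.

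**Figure D2:**
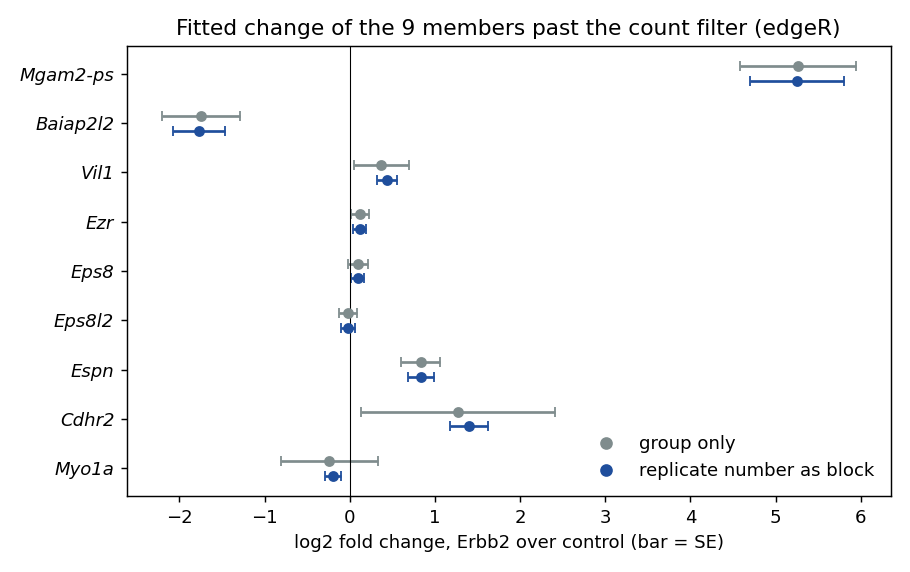
Fitted log2 fold change of the 9 members past the count filter, Erbb2 over control, with bars of 1 SE, for the fit with the group alone (grey) and with the replicate number as a block (blue). Mgam2-ps stands at 5.25 and Baiap2l2 at -1.77 with the block, and the SE of Cdhr2 is 1.14 without the block and 0.22 with it.

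Per kb of exon, the members spanned several orders of magnitude. In control organoids Ezr stood at 464 ± 17.9 CPM per kb (SD, n = 3) and Vil1 at 38.9 ± 17.9. Eps8l2 followed at 31.0, Myo1a at 19.4 and Eps8 at 16.8 CPM per kb, then Cdhr2 at 3.11, Baiap2l2 at 2.10 and Espn at 1.27, with Mgam2-ps at 0.159 and Cdhr5 at 0.0318. Neighbours in this order were separated beyond the range of their libraries after Ezr, after Eps8 and after Espn, and overlapped elsewhere. In Erbb2 organoids Mgam2-ps, at 6.59 ± 0.982 CPM per kb, ranked 7 of 10, behind Cdhr2 at 7.57 ± 8.74, whose libraries overlapped its own. Espn followed at 2.26, Baiap2l2 at 0.618 and Cdhr5 at 0.261 CPM per kb, each apart from the next.

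**Figure D3:**
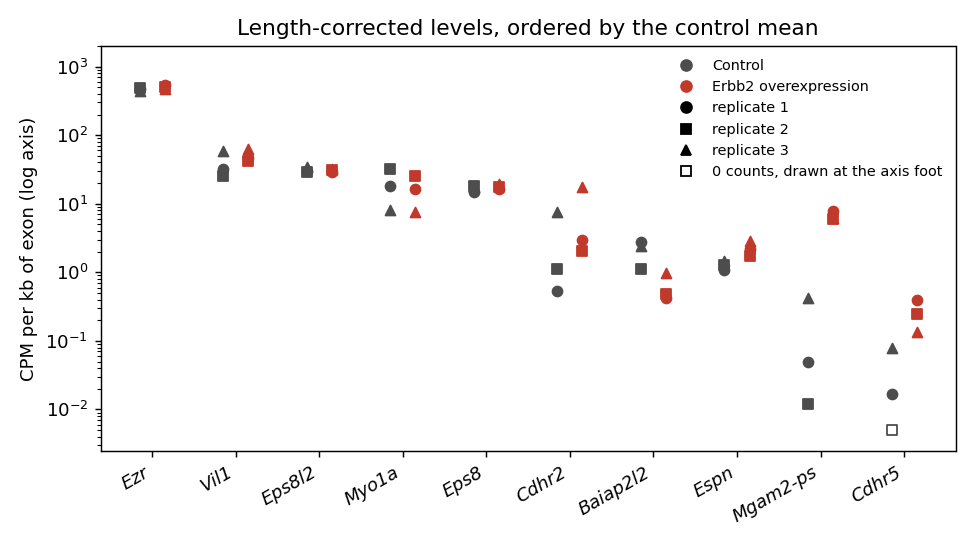
Length-corrected level of each member in each library, in CPM per kb of exon on a log axis, ordered by the control mean. Control libraries are grey and Erbb2 libraries red, with a symbol for each replicate number; Mgam2-ps moves from 0.159 to 6.59 CPM per kb between the group means and Ezr lies above every other member in both groups.

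In each of the gene lists that follow, the called genes are to be read beside the shares of all tested genes called with the block. These were 2.37% higher and 0.723% lower. The medians are to be read beside that of -0.01 over all tested genes. These lists too were set with earlier results of these data known. Their counts are descriptions and were not tested against those shares. Of 7 genes of the intestinal adhesion complex and its hair cell counterpart 6 were tested, and 1, Calml4, was higher and 1, Ush1g, lower, with a median of 0.59. Calml4, a calmodulin-like light chain of the complex, was counted at 5.51, 4.68 and 10.2 CPM in control replicates 1, 2 and 3 and at 9.29, 8.10 and 26.2 CPM in Erbb2 replicates 1, 2 and 3. Like Cdhr2 it was highest in replicate 3 of both groups, and it rose 2.06-fold (log2 1.04 ± 0.18 SE, adjusted p = 0.00905). Ush1g, a scaffold of the related hair cell complex, fell 1.56-fold (adjusted p = 0.0285), from 29.1 ± 8.89 to 18.6 ± 5.27 CPM (SD, n = 3 each). Its adjusted p was 0.196 without replicate 1 and 0.198 without replicate 2 of both groups. Anks4b, the scaffold of the intestinal complex, differed by 0.56 and the motors Myo7a by 0.62 and Myo7b by 1.45 on the log2 scale (adjusted p = 0.187, 0.156 and 0.296). Ush1c, the harmonin gene that joins these proteins, reached at most 0.0872 CPM in any library.

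Among 18 genes of the actin core and its bundlers 16 were tested, and 2 were higher and 0 lower, with a median of 0.12. Cobl, an actin nucleator of microvilli, rose 1.59-fold from 19.8 ± 12.6 to 31.2 ± 18.6 CPM (SD, n = 3 each; adjusted p = 0.00993). Gsn, encoding the filament-severing gelsolin, rose 1.34-fold from 48.6 ± 12.9 to 64.9 ± 12.6 CPM (adjusted p = 0.0215). Without replicate 2 of both groups their adjusted p-values were 0.063 and 0.191, and without replicate 1 that of Gsn was 0.101. The villin relatives Vill and Avil differed by 0.21 and 0.44 on the log2 scale and the bundler Fscn1 by 0.57, none past the test (adjusted p = 0.174, 0.269 and 0.118). The espin relative Espnl had at most 0.0872 CPM.

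Of the relatives of Eps8 and Baiap2l2 at microvillus tips and curved membranes 10 were tested, and 1 was higher and 0 lower, with a median of 0.13. Eps8l3, a further relative of Eps8, rose 1.40-fold from 44.1 ± 10.7 to 61.8 ± 14.4 CPM (SD, n = 3 each; adjusted p = 0.0105), and its adjusted p was 0.0508 without replicate 1 and 0.0822 without replicate 2 of both groups. Eps8l1 differed by 0.04 on the log2 scale (adjusted p = 0.911). The closest relatives of Baiap2l2 lay on the other side of 0 from it, Baiap2l1 at 0.20 and Baiap2 at 0.07 (adjusted p = 0.247 and 0.757). The difference between Baiap2l2 and these relatives was not tested.

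Of 19 membrane linkers and myosins 16 were tested, and 2 were higher and 0 lower, with a median of 0.08. Msn, encoding the ezrin relative moesin, rose 1.50-fold from 134 ± 78.6 to 189 ± 80.5 CPM (SD, n = 3 each; adjusted p = 0.0397). Mall, a membrane raft protein, rose 1.49-fold from 29.3 ± 11.8 to 42.4 ± 6.33 CPM (adjusted p = 0.0401). Without replicate 1 of both groups the adjusted p-values of Msn and Mall were 0.130 and 0.181, and without replicate 2 they were 0.148 and 0.239. The other ezrin relative, Rdx, and the ezrin kinase gene Slk differed by -0.26 and 0.21 on the log2 scale (adjusted p = 0.198 and 0.183).

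The enzymes of the intestinal brush border were mostly at or near 0. Of 18 genes 7 were tested, and 1 was higher and 0 lower, with a median of 0.01. The 11 others had at most 0.556 CPM. Ace, encoding angiotensin-converting enzyme, rose 1.32-fold from 36.4 ± 7.37 to 48.0 ± 7.95 CPM (SD, n = 3 each; adjusted p = 0.0351), and its adjusted p was 0.161 without replicate 1 and 0.238 without replicate 2 of both groups. Dpp4 and Naaladl1 differed by -0.53 and -0.61 on the log2 scale (adjusted p = 0.743 and 0.685). Sis, encoding sucrase-isomaltase, the closest functional partner of maltase-glucoamylase, and Alpi, encoding intestinal alkaline phosphatase, had 0 counts in all 6 libraries.

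Of 15 transcription factors of the intestine 12 were tested, and 1 was higher and 0 lower, with a median of -0.03. Cdx2, a homeobox factor that specifies intestinal epithelium, was counted at 0.278, 0.282 and 2.37 CPM in control replicates 1, 2 and 3 and at 3.18, 2.43 and 5.16 CPM in Erbb2 replicates 1, 2 and 3. The groups did not overlap, as held for 2 of the 12 tested factors and 8.75% of all genes tested. As for Mgam2-ps, replicate 3 was the highest control. Cdx2 rose 3.66-fold with the block (log2 1.87 ± 0.40 SE, adjusted p = 0.0274). The log2 difference was 3.32 without replicate 3 of both groups, and the adjusted p was 0.111 without replicate 1 and 0.0929 without replicate 2. Cdx1 had 0 counts in all libraries. Hnf4a, at 285 ± 17.9 and 292 ± 10.5 CPM, differed by 0.04 on the log2 scale, Hnf4g by -0.28, Gata5 by -0.26 and Klf4 by 0.18 (adjusted p = 0.867, 0.311, 0.131 and 0.282).

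**Figure D4:**
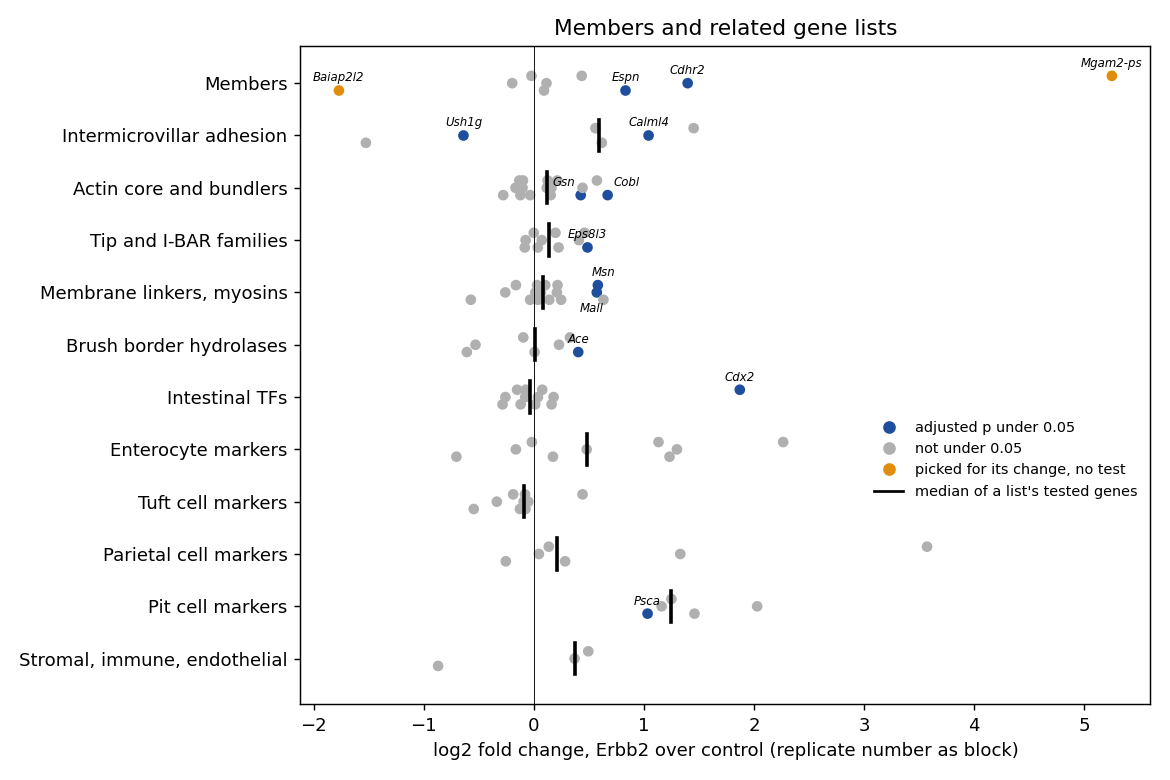
Log2 fold change, Erbb2 over control with the replicate number as a block, of each tested gene in the member list and in 11 other lists. Blue points passed an adjusted p of 0.05, grey points did not, orange points are the genes picked for their change, and black bars are medians of the tested genes of a list; most points lie near 0, with Cdx2 at 1.87 and Calml4 at 1.04 among those that passed.

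In bulk RNA, more cells of a type and more RNA per cell cannot be told apart, so markers of cell types that carry microvilli were set beside these results. Of 18 enterocyte markers 9 were tested and 0 passed with the block, with a median of 0.48. Gpa33 differed by 2.27 ± 0.56, Apob by 1.30 ± 0.52, Apoa1 by 1.23 ± 0.37 and Rbp2 by 1.13 ± 0.41 on the log2 scale (adjusted p = 0.267, 0.423, 0.104 and 0.174), and without the block DESeq2 called Apob (adjusted p = 0.0405). The groups of Gpa33 and Apob, 2 of the 9 tested, did not overlap, as held for 8.75% of all genes tested. The same held for 2 of 5 tested pit cell markers, 1 of 6 parietal cell markers and 0 of 9 tuft cell markers. The 9 untested markers had at most 0.291 CPM, and 4 of them, Fabp1, Apoc3, Alpi and Sis, had 0 counts in every library. The summed level of the list lay between 797 and 1627 CPM in control and between 821 and 1707 CPM in Erbb2 libraries, most of it from Lgals4, which differed by -0.16 (adjusted p = 0.301).

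Of 12 tuft cell markers 9 were tested and 0 passed, with a median of -0.09. Avil, Sh2d6, Ptgs1 and Dclk1 had the smallest p, at 0.44, -0.55, -0.19 and -0.09 on the log2 scale (adjusted p = 0.269, 0.373, 0.535 and 0.651). The list summed to between 126 and 140 CPM in control and between 126 and 162 CPM in Erbb2 libraries. Of 9 parietal cell markers counted 6 were tested and 0 passed, with a median of 0.21, although Aqp4, a water channel, differed by 3.57 (adjusted p = 0.174). The 3 untested parietal markers had at most 0.732 CPM, and 2 of them had 0 counts in every library. Car2, Slc26a9 and Kcnq1 differed by 0.28, 1.33 and 0.14 (adjusted p = 0.218, 0.393 and 0.405). Their sums lay between 626 and 894 CPM in control and between 795 and 1030 CPM in Erbb2 libraries. Of 6 pit cell markers 5 were tested and 1, Psca, a surface antigen of stomach epithelium, rose 2.05-fold from 72.6 ± 8.40 to 150 ± 25.8 CPM (SD, n = 3 each; adjusted p = 0.00557). The 5 tested pit markers all lay above 0, with a median of 1.25, the largest of the 11 lists other than the members. Gkn2, Gkn1 and Tff1 differed by 2.03, 1.16 and 1.25 on the log2 scale (adjusted p = 0.0824, 0.131 and 0.324). Pit markers summed to between 195 and 1313 CPM in control and between 634 and 1385 CPM in Erbb2 libraries. Of 12 markers of fibroblasts, immune and endothelial cells 3 were tested and 0 passed, namely Cd68 at 0.37, Ptprc at -0.87 and Col1a1 at 0.49 (adjusted p = 0.149, 0.326 and 0.636), with a median of 0.37 and sums of at most 55.2 CPM in control and 75.1 CPM in Erbb2 libraries. The part of cell composition in the differences above was not tested.

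The genes most like the picked members across the 6 libraries were taken from 10928 genes by Pearson's r of log2 CPM. They are descriptions, since the libraries share groups and pairs. For Mgam2-ps they were Plxnb2 (r = 0.992), Tnfaip2 (0.991) and G6pc3 (0.986), and 124 genes exceeded 0.9. Tnfaip2 stood at 12.9, 8.96 and 17.2 CPM in control and at 32.9, 34.5 and 30.4 CPM in Erbb2 replicates 1, 2 and 3, a narrower contrast than that of Mgam2-ps with the same highest control. For Baiap2l2 they were Polrmt (0.985), Dnaaf2 (0.983) and Pdap1 (0.980), and 73 genes exceeded 0.9.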

How the data were processed

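The deposited tables hold raw read counts per Ensembl gene, 1 table per library, in a column of matched counts, per the file headers. The submitters' processing notes name STAR, featureCounts and GRCm39. Versions, the annotation used and strandedness were not given in the sources used here, so a gene and an antisense partner cannot be told apart. Symbols matched 25424 of 25528 IDs; the other 104 held 0.120% to 0.219% of counts. The reference at hand was GENCODE M21 (GRCm38), used for names, gene order, exon length and transcripts, not for coordinates of the counts. Libraries of a group differed by 33.5 to 126 in chi-square per degree of freedom, so none was counted as a repeat of another.

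Counts were fitted with edgeR 4.0.16 in R 4.3.3 (TMM scaling, filterByExpr with a minimum count of 10, robust two-sided quasi-likelihood F test, Benjamini-Hochberg threshold 0.05) on all 6 libraries, which left 12593 genes. The set design had the group alone; a fit with the replicate number of the titles as a block was a listed alternative. Deviations from the group means correlated at 0.333, 0.660 and 0.707 between same-numbered libraries, each library best with its own number, so the numbers were taken to pair them, on the evidence of the same counts. Alternatives used DESeq2 1.42.0 and limma 3.58.1 (voom), other scalings and filters, an earlier form of the fit and libraries left out. The SE was computed as the log2 difference over the root of the F statistic. As a check of the code, counts were simulated with 200 well-counted genes changed 2-fold up or down. The group-only fit, on counts simulated without pair differences, recovered 200 with 12 false calls among 12522 genes. The blocked fit, with pair differences simulated, recovered 195 with 12 among 12510. One fixed spread was used for all genes. These settings differ from the real libraries, so the recovery says nothing of the power of either fit here, or for genes with few counts.

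The members, gene lists and alternatives were chosen with earlier results of these data known, and the 3 motifs after the promoter sequences were seen. Named are all members, Erbb2, up to 4 genes per list with the smallest p in the fit with the block, relatives of members, the 3 nearest genes on each side of Mgam2-ps and Baiap2l2 and the 3 genes most like each. Nearest genes leave out names of the forms Gm with a number, Rik, Mir and n-. Likeness used genes whose mean log2 CPM reached 1, without Gm, Rik and bare Ensembl names. Shared stretches and the alignment were computed with Biopython 1.88, exact intervals with scipy 1.17.1, at 95%. The limit for a count of 0 is 3 counts.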

Additional observations from a re-analysis of the deposited data

How the results depend on the processing

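Without the block, 0 genes were called in either direction under every scaling, filter and form of the edgeR fit and under limma voom, and 28 higher and 6 lower under DESeq2. With the block as described, 298 genes were higher and 91 lower, of which 2 higher were members not picked for their change, and 9 higher and 1 lower were in the other lists. With the block and DESeq2 these were 366 and 96, 3, and 13 and 1; with edgeR's legacy fit 312 and 93, 1, and 9 and 1; with limma voom 311 and 106, 2, and 9 and 1; with no filter 272 and 73, 2, and 9 and 1; with relative log expression 312 and 83, 2, and 9 and 1. DESeq2 without the block called 2 higher and 0 lower in the lists. Leaving out 1 library without the block gave 0 to 1 higher and 0 lower, the 1 without control replicate 3. Leaving out 1 pair with the block gave 121 to 769 higher and 24 to 320 lower (173 and 40 without replicate 1), 1 to 4 members higher, and 2 to 20 higher and 0 to 4 lower in the lists; the highest of each came without replicate 3. Of the 10 list genes called with the block 7 missed the threshold without replicate 1, 8 without replicate 2 and 0 without replicate 3; Calml4 and Psca passed under all 3. No member not picked for its change was called lower under any setting.

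Signs turned in these cases, in fits where the gene was not called, without the block unless stated. Eps8l2 lay between -0.081 and 0.059 over the libraries left out, and was 0.01 without Erbb2 replicate 1, 0.059 without control replicate 3 and 0.035 without replicate 3 of both groups (block). Cdhr2 lay between -0.31 without Erbb2 replicate 3 and 3.24 without control replicate 3. Myo1a lay between -0.68 and 0.33, the latter without control replicate 2, and was 0.11 without Erbb2 replicate 3. The cause was not tested. Depth limits Cdhr5, at 0 to 5 reads per control library, and Mgam2-ps in control replicates 1 and 2, at 5 and 1 reads.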
